A study of Mus musculus with 3 samples.

Results

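MicroRNAs often used as normalisers in blood fluids were followed through 3 ways of extracting RNA from mouse serum. They are the 9 miRNAs mmu-miR-103-3p, mmu-miR-107-3p, mmu-miR-191-5p, mmu-miR-425-5p, mmu-miR-320-3p, mmu-miR-484, mmu-miR-652-3p, mmu-miR-328-3p and mmu-miR-185-5p (written without the species prefix from here on). They were listed by name out of 1881 mouse miRNAs on the array, with earlier results of these data known. Serum came from 8-week-old male C57BL/6NJcl mice, and each extraction started from 200 µL. One extract was made with the miRNeasy serum/plasma advanced kit, which binds RNA from cell-free fluids to a spin column. Another, described in the labels as a measure of total serum RNA, used exoRNeasy midi columns, loaded with the aqueous phase left after 700 µL of the phenol reagent QIAzol was added to serum. The remaining extract was made with the mirVana PARIS kit, which combines organic extraction with a glass-fibre filter. Each extract gave 1.8 ng of RNA for Cy3 labelling and 1 Agilent miRNA array, and whether the extracts shared mice or a serum pool was not given. Each kit had 1 array, so differences between kits have no replicate check and no p-value. Errors come from replicate spots of a probe and leave out variation between extractions and between mice.

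A reference miRNA is measured beside the miRNAs of interest so that differences in RNA recovery and input can be divided out. It serves that purpose when it is well above background in every sample and when its own level follows the total. Serum has no single accepted reference, because its miRNAs come from red cells, platelets, white cells and tissues and travel in vesicles and protein complexes that extraction methods open to different degrees.

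Mature sequences of 6 of the 9 miRNAs were found in RefSeq (GRCm38.p6). They are shown because probes tell miRNAs apart by sequence alone, with the seed, bases 2 to 8, in capitals. Neither miR-320-3p, nor miR-328-3p, nor miR-185-5p was found in the table.
miR-103-3p: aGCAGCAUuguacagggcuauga
miR-107-3p: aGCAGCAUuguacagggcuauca
miR-191-5p: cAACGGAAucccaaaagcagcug
miR-425-5p: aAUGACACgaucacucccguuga
miR-484: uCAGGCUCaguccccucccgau
miR-652-3p: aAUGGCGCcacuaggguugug
The 6 carried 5 different seeds, since miR-103-3p and miR-107-3p share one. Over their 23 bases these paralogues differ by 1 substitution, G22C, with miR-103-3p given first and positions counted from the 5′ end. Their hairpins lie within pantothenate kinase genes, which start coenzyme A synthesis. The mature miR-103-3p sequence is encoded at chr2:131288103-131288125 within Pank2 and at chr11:35782447-35782469 within Pank3, both on the plus strand, and miR-107-3p at chr19:34820700-34820722 on the minus strand within Pank1. Within the gene Dalrd3, miR-191-5p at chr9:108568325-108568347 and miR-425-5p at chr9:108568789-108568811, both on the plus strand, are separated by 441 bases. On the plus strand lie also miR-484 at chr16:14159630-14159651, inside no other annotated gene, and miR-652-3p at chrX:142739060-142739080 within Tmem164. GC content ranged from 47.8% to 63.6% and was highest in miR-484.

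Detection of these miRNAs differed between the kits. The scanner software marks spots well above background. Detection of a probe required this mark on more than 0.5 of its spots that were no outliers, and detection of a miRNA required 1 such probe. Of the 9 miRNAs, 6 were detected from mirVana PARIS RNA, 3 from exoRNeasy RNA and 2 from miRNeasy advanced RNA. Among all 1881 miRNAs the detected shares were 7.12%, 4.41% and 3.77% in the same order. On all 3 arrays 2 of the 9 were detected, miR-107-3p and miR-328-3p, against 3.56% of all miRNAs. On none were 3 of the 9 detected, as were, by the shares above, most of the 1881. Of the 20 probes for the 9 miRNAs, 8 were detected on at least 1 array and 2 on all 3. Of all 4415 probes, 213 were detected from mirVana PARIS, 128 from exoRNeasy and 115 from miRNeasy advanced RNA, and 106 on all 3 arrays. With the software's own flag for a whole miRNA the numbers were 7, 5 and 2 of 9, against 8.56%, 7.12% and 5.16% of all miRNAs.

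**Figure D1:**
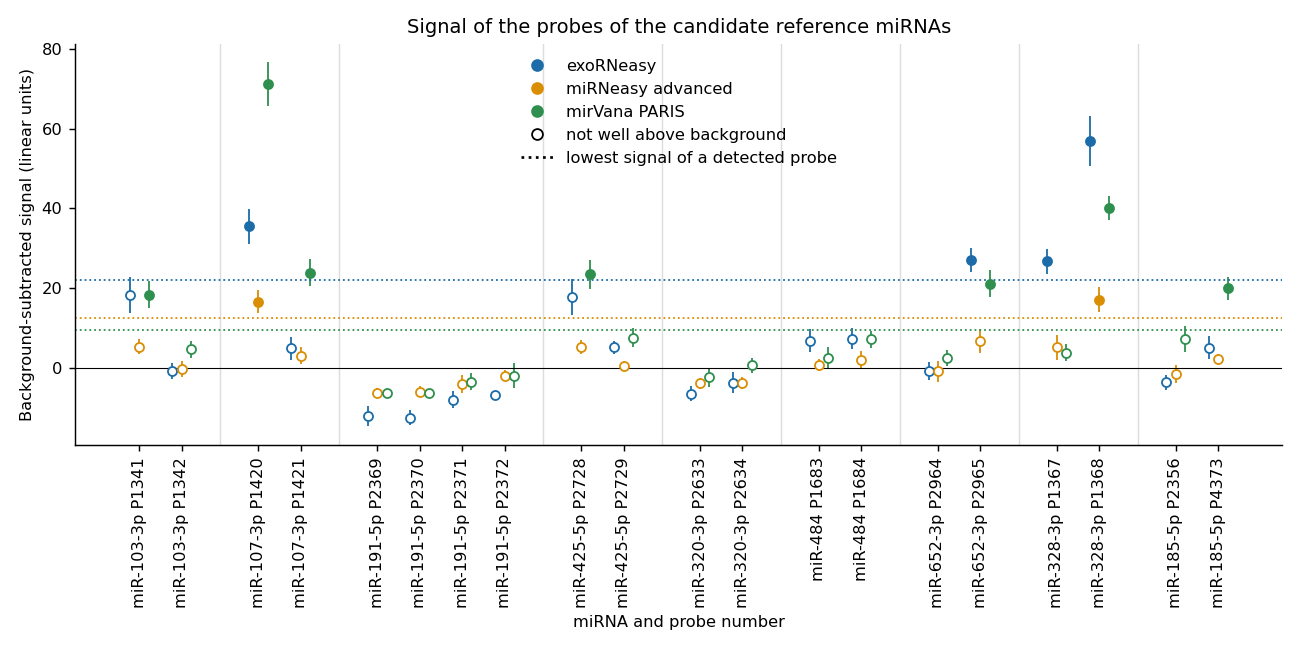
Mean background-subtracted signal (linear units) of each of the 20 probes, with bars for 1 SD between spots, on the exoRNeasy, miRNeasy advanced and mirVana PARIS arrays. Filled points are detected, open points are not well above background, and dotted lines mark the lowest signal of any detected probe on each array, at 22.0, 12.4 and 9.56. The highest point is miR-107-3p on the mirVana PARIS array, at 71.1, and every miR-191-5p point lies below 0.

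The arrays did not set the same hurdle. The lowest mean signal of a detected probe was 22.0 for exoRNeasy RNA, 12.4 for miRNeasy advanced RNA and 9.56 for mirVana PARIS RNA. Negative-control spots averaged 5.26 ± 3.53 (SD, n = 984), 4.88 ± 2.65 (n = 990) and 4.90 ± 2.53 (n = 988) in the same order. The share of those control spots flagged well above background was 0%, 0.202% and 1.01%. A common threshold of 22.0, the lowest detected signal of the exoRNeasy array, was added after the values were seen. It raised the hurdle on the other arrays alone. Since it was set on unscaled signals, it cannot separate the hurdles from differences in brightness between arrays. At or above it stood miR-107-3p, miR-328-3p and miR-652-3p on the exoRNeasy array, miR-107-3p, miR-328-3p and miR-425-5p on the mirVana PARIS array, and none of the 9 on the miRNeasy advanced array. Of all miRNAs 86, 94 and 53 stood at or above it in the same order.

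The paralogues miR-103-3p and miR-107-3p, known as regulators of insulin sensitivity in liver and fat, were not detected alike. They differ by 1 base, and whether probes for either also bound the other was not tested. The probe A_54_P1420 of miR-107-3p had a mean signal of 35.5 ± 4.36 from exoRNeasy RNA, 16.6 ± 2.97 from miRNeasy advanced RNA and 71.1 ± 5.54 from mirVana PARIS RNA (SD, n = 15 spots each), and was detected on each. Its signal was thus highest from mirVana PARIS RNA and lowest from miRNeasy advanced RNA. Without scaling between arrays, the log2 difference was −1.01 ± 0.05 (spot error) for exoRNeasy minus mirVana PARIS, −2.12 ± 0.08 for miRNeasy advanced minus mirVana PARIS and 1.11 ± 0.08 for exoRNeasy minus miRNeasy advanced. All of these exceeded 3 spot errors. The other probe of miR-107-3p, A_54_P1421, was detected on the mirVana PARIS array alone, at 23.8 ± 3.38 (n = 15). Its values of 4.87 ± 2.81 (n = 14) for exoRNeasy and 3.06 ± 2.07 (n = 15) for miRNeasy advanced lay below the negative-control means and have no order.

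For miR-103-3p, the probe A_54_P1341 had nearly the same mean signal on the exoRNeasy and mirVana PARIS arrays, 18.2 ± 4.51 and 18.4 ± 3.42 (SD, n = 15), and 5.27 ± 1.85 on the miRNeasy advanced array. On the mirVana PARIS array 15 of 15 spots were flagged well above background, on the exoRNeasy array 2 of 15, and on the miRNeasy advanced array 0. It was therefore detected on 1 array, although the signals of 2 arrays were within 1 SD of each other. Its other probe was not detected on any array.

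The miRNAs miR-191-5p and miR-425-5p are made from neighbouring hairpins, and miR-191-5p is among the references proposed most often from tissue panels. It had 4 probes with 6 to 8 usable spots on the exoRNeasy array, and their mean signals lay between −12.5 and −6.73 there, between −6.28 and −1.94 for miRNeasy advanced and between −6.36 and −2.03 for mirVana PARIS. All 4 probes were thus below 0, and below the mean of the negative controls, on every array, so no level or ratio can be given for miR-191-5p. Its neighbour miR-425-5p had a mean signal of 17.9 ± 4.51 from exoRNeasy RNA, 5.23 ± 1.71 from miRNeasy advanced RNA and 23.4 ± 3.59 from mirVana PARIS RNA (SD, n = 15, probe A_54_P2728). It was detected on the mirVana PARIS array in 15 of 15 spots, and 2 of 15 spots were flagged on the exoRNeasy array.

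Both miR-320-3p and miR-484 come from precursors that are capped at their start and bypass Drosha, the enzyme that cuts most hairpins out of their transcripts. Neither was detected on any array. The probe A_54_P2634 of miR-320-3p averaged −3.71 ± 2.58 (n = 15) from exoRNeasy RNA, −3.81 ± 1.43 (n = 14) from miRNeasy advanced RNA and 0.634 ± 1.85 (n = 15) from mirVana PARIS RNA. For miR-484 the probe A_54_P1684 stood at 7.34 ± 2.67, 2.01 ± 2.09 and 7.17 ± 2.16 (n = 15 each), with 1 spot flagged, on the mirVana PARIS array. The software's own flag called miR-484 detected on the mirVana PARIS array and miR-320-3p on none.

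Of the other 3 miRNAs, miR-652-3p was detected on 2 arrays, miR-328-3p on 3 and miR-185-5p on 1. The miRNA miR-185-5p, a repressor of cholesterol uptake and synthesis genes, averaged 20.0 ± 2.92 on the mirVana PARIS array (n = 14 spots, all flagged, probe A_54_P4373), against 5.09 ± 2.79 (n = 15) on the exoRNeasy array and 2.12 ± 1.39 (n = 13) on the miRNeasy advanced array. For miR-652-3p, A_54_P2965 averaged 27.0 ± 3.07 (n = 14, 12 spots flagged) from exoRNeasy RNA, 6.73 ± 3.05 (n = 15, 2 spots flagged) from miRNeasy advanced RNA and 21.1 ± 3.42 (n = 15, all flagged) from mirVana PARIS RNA.

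For miR-328-3p, a repressor of the drug transporter gene Abcg2, the probe A_54_P1368 averaged 57.0 ± 6.29 from exoRNeasy RNA, 17.1 ± 3.11 from miRNeasy advanced RNA and 40.1 ± 3.07 from mirVana PARIS RNA (SD, n = 15 spots each). It was brightest from exoRNeasy RNA, unlike miR-107-3p. Its unscaled log2 difference was 0.50 ± 0.05 for exoRNeasy minus mirVana PARIS, 1.75 ± 0.08 for exoRNeasy minus miRNeasy advanced and −1.25 ± 0.07 for miRNeasy advanced minus mirVana PARIS, each over 3 spot errors. The 2 probes of miR-328-3p disagreed in size. A_54_P1367 averaged 26.7 ± 3.10 (n = 15, 12 spots flagged) from exoRNeasy RNA, 5.13 ± 3.15 (n = 15) from miRNeasy advanced RNA and 3.76 ± 2.17 (n = 14) from mirVana PARIS RNA, where it was not well above background. On the exoRNeasy array it was at least 2.79-fold brighter than the lowest detected signal of the mirVana PARIS array, while A_54_P1368 differed by 1.42-fold between these arrays.

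Of the 67 miRNAs detected on all 3 arrays, 53 (79.1%) had the unscaled order mirVana PARIS, exoRNeasy, miRNeasy advanced from brightest to dimmest, and miR-107-3p was among them. The order of miR-328-3p, with exoRNeasy first, was that of 10 (14.9%). Unscaled, the highest and lowest arrays differed by 4.34-fold for miR-107-3p (log2 2.12) and 3.37-fold for miR-328-3p (log2 1.75), ranks 50 and 39 of 67 counted from the smallest range. The median unscaled range was 1.69 log2 units over all 67, and 10.4% of them stayed under 2-fold, neither miR-107-3p nor miR-328-3p among them. The labelling spike-in, a synthetic RNA added before labelling, differed by −0.12 ± 0.08 for exoRNeasy minus miRNeasy advanced, −0.25 ± 0.18 for exoRNeasy minus mirVana PARIS and −0.13 ± 0.12 for miRNeasy advanced minus mirVana PARIS (SD, 4 probes). The hybridisation spike-in differed by 0.42 ± 0.06, 0.41 ± 0.11 and −0.01 ± 0.06 in the same order (SD, 4 probes). The differences of miR-107-3p and miR-328-3p exceeded the labelling spike-in's in size in every comparison.

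**Figure D2:**
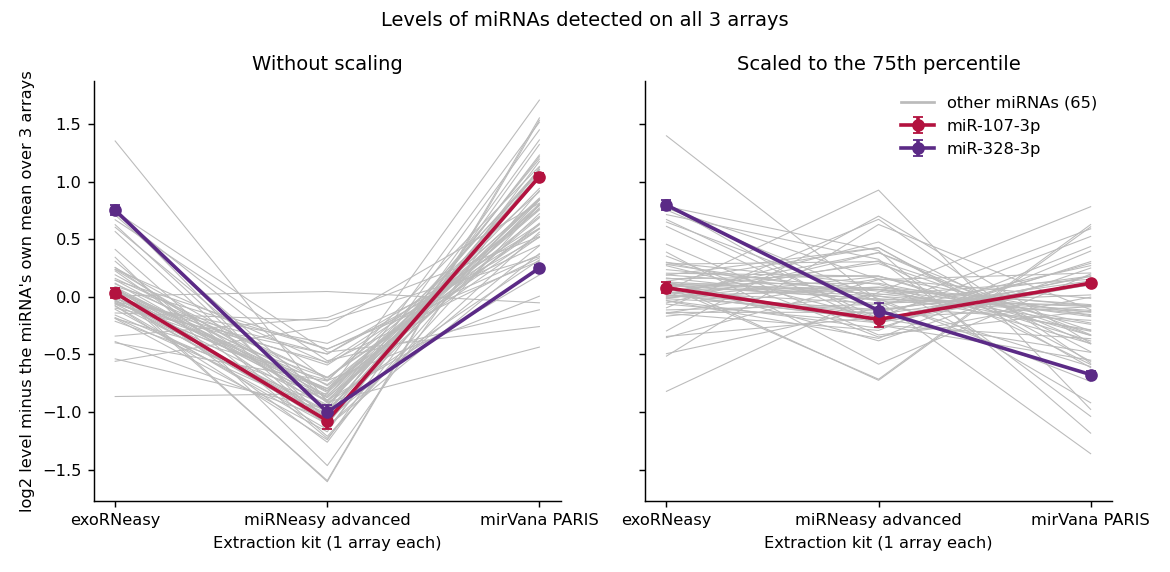
The log2 level of each of the 67 miRNAs detected on all 3 arrays, minus its own mean over the arrays, without scaling (left) and after scaling each array to the 75th percentile of its commonly detected probes (right); bars are spot errors. On the left, both miR-107-3p and miR-328-3p are lowest on the miRNeasy advanced array. On the right, miR-107-3p is nearly level, with a range of 0.31, and miR-328-3p falls from exoRNeasy to mirVana PARIS by 1.47.

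Scaling, which here subtracts from each array the 75th percentile of log2 signal over the 106 probes detected on all arrays, moved both miRNAs, miR-107-3p to a smaller range and miR-328-3p to a different order of arrays. The scaled log2 levels of miR-107-3p were −1.91 for exoRNeasy, −2.18 for miRNeasy advanced RNA and −1.87 for mirVana PARIS RNA. Its scaled range was 0.31 log2 units (1.24-fold), rank 16 of 67. With other scales its range was 2.09 (rank 51, percentile over all probes), 1.99 (rank 49, labelling spike-in) and 2.11 (rank 51, hybridisation spike-in). Under these scales miR-328-3p took ranks 18, 43 and 20, so which of the 2 was more constant turned with the scale. The percentile over all probes lies at the level of undetected probes, since at most 213 of the 4415 were detected on an array. The exoRNeasy and mirVana PARIS levels of miR-107-3p could not be separated by spot error, with a difference of −0.04 ± 0.05, while the miRNeasy advanced level lay below them by 0.27 ± 0.08 and 0.31 ± 0.08, over 3 spot errors each.

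The scaled log2 levels of miR-328-3p were −1.22 for exoRNeasy RNA, −2.14 for miRNeasy advanced RNA and −2.69 for mirVana PARIS RNA. All 3 differed by over 3 spot errors, with the largest difference between exoRNeasy and mirVana PARIS at 1.47 ± 0.05 (2.77-fold), rank 60 of 67. So 1 of 2 stayed under 2-fold over the arrays after scaling, against 73.1% of all 67. The order of miR-328-3p was not kept by every setting: without scaling, and with the spike-ins or the percentile over all probes as scale, its level on the miRNeasy advanced array fell below that on the mirVana PARIS array, at log2 differences of −1.25, −1.12 (labelling), −1.24 (hybridisation) and −1.22. With pixel medians, which hold the local background, the scaled range of miR-107-3p came to 0.44 (rank 29) and with normexp, a model-based background correction, to 0.48 (rank 32), and that of miR-328-3p to 1.08 and 0.97 (ranks 61 and 60).

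**Figure D3:**
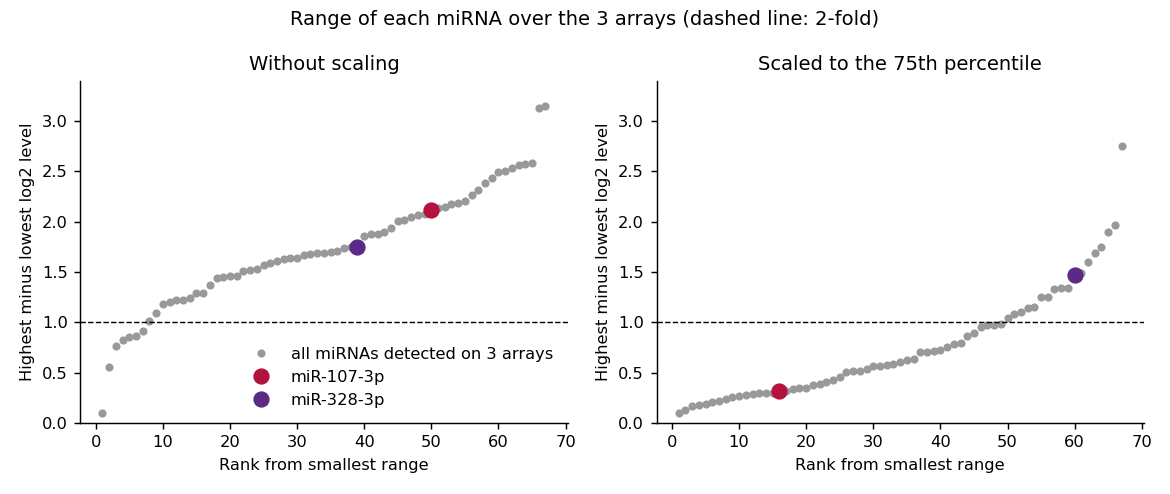
Highest minus lowest log2 level over the 3 arrays for each of the 67 miRNAs detected on all of them, ordered from smallest to largest, without scaling (left) and scaled (right). Unscaled, miR-107-3p and miR-328-3p sit at ranks 50 and 39, above the dashed line at 2-fold; scaled, miR-107-3p moves to rank 16 and miR-328-3p to rank 60.

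When exoRNeasy was set against mirVana PARIS, 3 of the 9 miRNAs were detected on both arrays. After scaling, miR-328-3p was 2.77-fold and miR-652-3p 2.52-fold higher on the exoRNeasy array (log2 1.33 ± 0.08 for miR-652-3p), and miR-107-3p differed by −0.04. Of all 80 miRNAs detected on both arrays, 25% were at least 2-fold higher and 2.5% at least 2-fold lower on the exoRNeasy array. The median of the 3 was 1.33 beside 0.33 over all 80. Without scaling the median was 0.36 for the 3 and −0.64 for all 80, and the difference of miR-652-3p shrank to 1.29-fold (log2 0.36). The direction of miR-652-3p turned with the percentile over all probes, at −0.10, and with the hybridisation spike-in, at −0.04. Under the same scales the difference of miR-328-3p shrank to 0.0385 and 0.094, and that of miR-107-3p grew to −1.47 and −1.42, with −0.76 for the labelling spike-in. Unscaled, miR-107-3p was 2.01-fold lower on the exoRNeasy array, where 27.5% of all 80 were at least 2-fold lower and 6.25% at least 2-fold higher.

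When exoRNeasy was set against miRNeasy advanced, miR-107-3p and miR-328-3p were 1.21-fold and 1.89-fold higher on the exoRNeasy array after scaling (log2 0.27 ± 0.08 and 0.92 ± 0.08). Neither reached 2-fold, as 2.99% of the 67 did upward and 1.49% downward. The difference of miR-107-3p turned to −0.10 without background correction, −0.16 with normexp and −0.01 with scaling to the median. With its second probe it was −0.20, from signals not well above background on either array. The difference of miR-328-3p stayed above 0 in all 14 alternatives that gave a value, from 0.10 to 1.87. Of these, a floor of 4, kept outlier spots, the software's detection flag and the deposited table returned the main value, 0.92. Without scaling both were over 2-fold higher, at 2.16-fold and 3.37-fold, beside 43.3% of the 67. For miR-652-3p, not well above background on the miRNeasy advanced array, the exoRNeasy level was at least 1.24-fold higher after scaling and at least 2.21-fold without. For such a bound the dim array's value was replaced by the lowest level of any detected probe there, unless its own was higher.

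When miRNeasy advanced was set against mirVana PARIS, the scaled differences of miR-107-3p and miR-328-3p were −0.31 ± 0.08 and 0.55 ± 0.07, in opposite directions and both under 2-fold. That of miR-107-3p turned to 0.48 with normexp and 0.44 without background correction. Of the 71 miRNAs detected on both arrays, 14.1% were at least 2-fold higher and 2.82% at least 2-fold lower on the miRNeasy advanced array. Unscaled, both were lower on the miRNeasy advanced array, by 4.34-fold and 2.38-fold, as were 80.3% of the 71 by at least 2-fold. The 4 other miRNAs detected on the mirVana PARIS array had bounds there, without scaling, of at least 1.90-fold for miR-425-5p, 1.71-fold for miR-652-3p, 1.62-fold for miR-185-5p and 1.48-fold for miR-103-3p over the miRNeasy advanced array. After scaling none of these bounds exceeded 1-fold, so these 4 gave no direction.

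A pair of references can also be set against each other, which no scaling of a whole array by 1 factor can alter. The log2 level of miR-107-3p minus that of miR-328-3p was −0.68 in exoRNeasy RNA, −0.04 in miRNeasy advanced RNA and 0.83 in mirVana PARIS RNA. Their offset thus moved by 1.51 log2 units, or 2.85-fold, between kits. Of 2211 pairs among the 67 miRNAs, 1738 (78.6%) moved less, and the median pair moved 0.96. The move was 0.66 with normexp, 0.74 without background correction and 3.52 with the mean of all probes of a miRNA. Normexp adds an offset of 50 and uncorrected signals keep the local background. The part of either in the smaller moves was not tested. The mean of all probes takes in A_54_P1421 and A_54_P1367, each not well above background on some arrays. Over the 2 arrays on which it was detected, miR-652-3p moved with miR-328-3p, with offsets of −1.08 on the exoRNeasy array and −0.94 on the mirVana PARIS array, and apart from miR-107-3p, whose offset to it moved by 1.37.

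What a reference does to the rest of the profile was measured by scaling the arrays to it. With miR-107-3p as the only reference, 21 miRNAs were at least 2-fold higher and 2 at least 2-fold lower on the exoRNeasy array than on the mirVana PARIS array, beside 20 and 2 under the 75th percentile. With miR-328-3p the split turned to 4 higher and 46 lower, and with the mean of both to 7 and 14. For exoRNeasy against miRNeasy advanced the splits were 1 and 5 with miR-107-3p, 0 and 19 with miR-328-3p and 0 and 8 with their mean. For miRNeasy advanced against mirVana PARIS they were 18 and 2, 3 and 11, and 7 and 2. Scaling exoRNeasy against mirVana PARIS to miR-652-3p gave 4 higher and 40 lower.

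**Figure D4:**
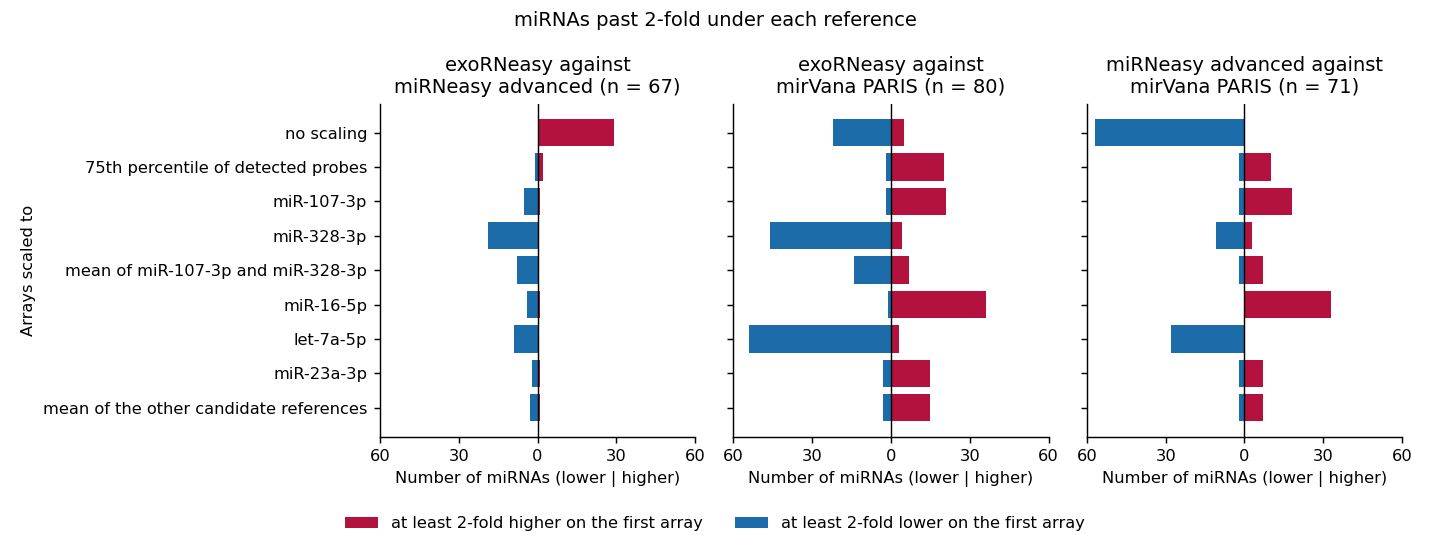
Number of miRNAs at least 2-fold higher (right of 0) or lower (left of 0) on the first array of each comparison, among the 67, 80 and 71 detected on both, when the arrays are scaled to the reference named at the left. In the middle panel miR-107-3p gives 21 higher and 2 lower, and miR-328-3p gives 4 higher and 46 lower.

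A further list held 28 miRNAs that serve as references or controls in blood studies, among them miR-16-5p, let-7a-5p, miR-21a-5p and miR-23a-3p. Detected were 20 of the 28 from mirVana PARIS RNA, 19 from exoRNeasy RNA and 17 from miRNeasy advanced RNA, and 17 on all arrays. The shares over all miRNAs were 7.12%, 4.41%, 3.77% and 3.56% in the same order. Those not detected on any array numbered 8, miR-423-5p and miR-423-3p among them. The median scaled range of the 17 was 0.61 log2 units, equal to the median over all 67. Of the 17, 14 (82.4%) stayed under 2-fold, near the 73.1% of all 67. The smallest scaled range of the 17 was that of miR-15b-5p, 0.27, and the largest that of let-7a-5p, 1.69. As single references for exoRNeasy against mirVana PARIS, the 17 gave splits from 36 higher and 1 lower with miR-16-5p, abundant in red cells, to 3 higher and 54 lower with let-7a-5p. The haemolysis indicator pair stood apart in the same comparison: the scaled log2 ratio was −0.56 ± 0.02 for the red cell miRNA miR-451a and 0.28 ± 0.02 for miR-23a-3p, which red cells hold little of. Other red cell miRNAs did not share 1 direction. The ratio was −1.60 for miR-144-3p, −0.58 for miR-16-5p and −0.34 for miR-486a-5p, but 0.01 for miR-25-3p and 0.50 for miR-92a-3p. The mean of the 17 gave 15 and 3, and miR-23a-3p alone 15 and 3.

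The run AGCAGCA starts at base 1 of miR-103-3p and miR-107-3p. It starts at base 2, in the seed, of their relatives miR-16-5p and miR-497a-5p, shown for that run. The last is also shown because its scaled level was among the most constant.
miR-16-5p: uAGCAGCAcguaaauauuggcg
miR-497a-5p: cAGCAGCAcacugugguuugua
Of 7 relatives of miR-103-3p and miR-107-3p on the array, 6 were detected on the mirVana PARIS array and 5 on each of the others. Among all miRNAs the shares were 7.12% for mirVana PARIS, 4.41% for exoRNeasy and 3.77% for miRNeasy advanced. Detected on all 3 were miR-15a-5p, miR-15b-5p, miR-16-5p, miR-195a-5p and miR-497a-5p. Their scaled ranges ran from 0.16 for miR-497a-5p to 0.73 for miR-16-5p, beside 0.31 for miR-107-3p and the median of 0.61 over all 67. Not detected was miR-503-5p, whose seed is AGCAGCG. None of the 8 opposite arms of the reference hairpins on the array, such as miR-191-3p and miR-425-3p, was detected on any array.

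The 5 most constant miRNAs after scaling, among the 65 other miRNAs detected on all 3 arrays, were miR-22-3p with a range of 0.10 log2 units, miR-146a-5p with 0.13, miR-497a-5p with 0.16, miR-29a-3p with 0.17 and miR-140-3p with 0.19. The 5 least constant were miR-466i-5p with 2.76, let-7c-5p with 1.97, miR-3473f with 1.90, let-7b-5p with 1.75 and let-7a-5p with 1.69. For the widest scaled difference, spot errors were 0.06 for miR-146a-5p and 0.07 for miR-497a-5p, so these ranges are not separated by spot error. Without scaling the first 5 ranged over 1.64 to 1.88, and miR-3473f over 0.098.

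The profile nearest to the median of miR-107-3p and miR-328-3p was that of miR-92a-3p, with a root mean square difference of 0.098 log2 units over 3 arrays, followed by miR-342-3p, miR-223-3p, miR-192-5p and miR-215-5p at 0.12 to 0.15. Since the 2 profiles ran apart, the nearest to each alone were also found, a choice made after their values were seen. Nearest to miR-107-3p were miR-25-3p at 0.03, miR-15b-5p at 0.035, miR-19b-3p at 0.048, miR-20a-5p at 0.051 and miR-29c-3p at 0.063. Nearest to miR-328-3p were let-7f-5p at 0.074, miR-3095-3p and miR-125b-5p both at 0.10, let-7d-5p at 0.14 and then, at 0.21, let-7a-5p.

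Some miRNAs that mark blood cells, liver or muscle were detected in the serum, and other tissue markers were not. A haemolysis list of 8 held red cell miRNAs and their comparison miR-23a-3p. Of these, 8 were detected on the mirVana PARIS array and 7 on each of the others. Among all miRNAs 7.12% were detected from mirVana PARIS, 4.41% from exoRNeasy and 3.77% from miRNeasy advanced RNA. In the same order, the list's median scaled log2 levels were −0.03, 0.10 and −0.29. These medians cover different sets and give no order of kits, since miR-144-5p, at −3.60, enters for mirVana PARIS alone. Of 6 platelet and white cell markers 6, 5 and 5 were detected, and of 2 liver markers 2 on each. Of 4 heart and skeletal muscle markers miR-1a-3p and miR-133a-3p were detected on all arrays, and miR-206-3p and miR-208a-3p on none. The brain markers miR-9-5p and miR-124-3p were not detected on any array. The part of these cell types in the signals of the reference miRNAs was not tested.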

How the data were processed

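Linear spot intensity was read from 3 scanner files. Per the file headers, the authors made them with Agilent Feature Extraction 11.5.1.1 (11.5 in the submitters' processing notes), after spatial detrending and background subtraction, which leaves part of the deposited intensities below 0. The headers record no scaling between arrays, and a genome build is not given in the sources used here. Values in the deposited table equalled these intensities to within 0.497%. Flags for outliers, saturation and signal above background come from the same software, per the file headers.

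Outlier-flagged spots were left out (1515 on the exoRNeasy, 1474 on the miRNeasy advanced and 1427 on the mirVana PARIS array, of 56430 each) and none was saturated. A floor of 1 was set, and log2 signals of the 4 to 15 usable spots of each reference probe were averaged. From each array the 75th percentile of the 106 commonly detected probes was then subtracted (7.05, 6.21 and 8.02); the probes of miR-107-3p and miR-328-3p are among the 106. Each miRNA is represented by 1 probe, that with the most arrays of detection and, among equals, the highest mean. Fold thresholds are 2-fold. The number of arrays, 1 per kit, limits the precision. All 9 reference miRNAs are named, and beside them the 5 nearest profiles, the 5 smallest and 5 largest ranges, and list members of high level or singled out by their values. The miRNAs and lists were chosen with earlier results of these data known. Simulated data with known differences were used to test the scripts. Tools were Python 3.11.15, pandas 2.3.3 and limma 3.58.1, the last for normexp with an offset of 50.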

Additional observations from a re-analysis of the deposited data

How the results depend on the processing

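The medians below are over the 2 or 3 reference miRNAs detected on the arrays compared, so 1 miRNA can move them; the scale, the background and the probe chosen each did. No paired analysis was possible because there was 1 array per kit. Of 81 recomputed values, 39 stayed within the spot spread (counts within 1.5 times) and 42 did not, and 8 ratios changed sign, 1 of them within the spot spread. Some settings could hardly move a value. A floor of 4 lay below the signals used, and the deposited table holds nearly the same intensities. The probes used for miR-107-3p and miR-328-3p had no outlier spots, and the software's flag changes only which miRNAs are admitted. The 39 is thus no measure of how stable the results are.

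For exoRNeasy minus miRNeasy advanced the median log2 ratio was 0.60. It came to 1.43 without scaling, 0.94 with the 75th percentile over all probes, 1.55 with the labelling spike-in, 1.02 with the hybridisation spike-in, −0.029 with normexp and 0.0404 without background correction. For exoRNeasy minus mirVana PARIS it was 1.33, and turned to −0.10 with the percentile over all probes and −0.0427 with the hybridisation spike-in. It was 0.36 without scaling, 1.09 with the median, 0.77 with quantiles, 0.62 with the labelling spike-in, 0.87 with normexp, 0.98 without background correction, 0.69 with the mean of all probes, 0.0543 with the second best probe and 0.94 with the software's detection flag, which admits 5 miRNAs. For miRNeasy advanced minus mirVana PARIS it was 0.12. It came to −1.68 without scaling, −1.66 when the percentile covered all probes, −1.55 with the labelling and −1.68 with the hybridisation spike-in, 0.68 with normexp, 0.67 without background correction and 0.46 with the second best probe.

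The median scaled range was 0.89. It was 1.94 without scaling, 1.68 when the percentile covered all probes, 1.93 for the labelling and 1.72 for the hybridisation spike-in, 1.78 when probes were averaged and 2.77 for the second best probe. The median unscaled range of 1.94 became 0.72 with normexp, 0.87 without background correction, 2.40 when probes were averaged and 3.08 for the second best probe. The number under 2-fold, 1 of 2, was 0 without scaling, with the percentile over all probes, with both spike-ins and with the second best probe, and 2 with normexp. The number detected on all arrays, 2, was 0 when every probe had to be detected, which left no ratio to compute, and 0 at the common threshold. Second probes were mostly not well above background, so their values show no measured change. Where a scale subtracts 1 value from each array, ratios move by the change in the difference between the arrays' values. For exoRNeasy minus mirVana PARIS that difference was −0.97 for the 75th percentile of detected probes and 0.41 for the hybridisation spike-in. The cause of the other moves was not tested.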
